A study of Mus musculus with 2 samples.

Results

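The 10 genes described here belong to the machinery that turns neuropeptide precursors into peptides and packs them into granules: the convertases Pcsk1 and Pcsk2, the Pcsk2 partner Scg5, the trimming enzymes Cpe and Pam, and the granins Scg2, Chgb, Scg3, Chga and Vgf. They were taken by gene symbol and are 10 of the 28692 genes of the files, and all 10 had UMIs in both libraries. The data are single-cell RNA counts from the lateral hypothalamic area of C57BL/6 mice at postnatal day 30. The library labelled male pooled 3 animals and the library labelled female pooled 2, all from the same litter, and the labels name no treatment or altered gene. Cells were dissociated from brain slices and captured on the Chromium system with v2 chemistry, which counts a transcript near its 3′ end by a unique molecular identifier (UMI).

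For the comparisons, 4 groups of neurons that share no cell were formed, each present in both libraries. Neurons were called Hcrt-high where Hcrt gave at least 0.3% of the UMIs of a cell; Hcrt is the precursor of the hypocretins (83 and 83 cells). Pmch-high neurons passed the same limit for Pmch, the precursor of melanin-concentrating hormone (85 and 61 cells). Inhibitory neurons had UMIs of Slc32a1, the vesicular GABA transporter, and none of Slc17a6 (982 and 1107 cells). Other excitatory neurons had UMIs of Slc17a6, a vesicular glutamate transporter, and none of Slc32a1 (600 and 689 cells), and both transporter groups held no Hcrt-high or Pmch-high neuron. Here and throughout, where 2 values are given for a group, they belong to the library labelled male and to the library labelled female, in that order.

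The libraries held 3439 and 3793 barcodes with 23151801 and 27437142 UMIs, and 2039 and 2266 cells were kept as neurons, with median depths of 7709 and 8126 UMIs. Sex-linked transcripts went against both labels: the library labelled male had 20641 UMIs of Xist and 0 of 4 Y-linked genes, and the library labelled female had 30 of Xist and 7618 of those 4 genes. The library names are therefore used as labels only, and 18 barcodes occurred in both libraries. Each label has 1 library of pooled animals, and the library was a block in the main fits. The p-values therefore rest on how differences between groups vary between these 2 libraries, with information on spread shared between genes. They do not measure the spread between animals. The fit of the neuron groups had 3 residual degrees of freedom and a prior of 22.4 from all genes. The later fits for peptide load and leading peptides had 3 and 56.0, and 6 and 76.4. Standard errors and p-values of a gene thus draw mostly on the shared spread and less on its own. Median depth was 16101 and 18593 UMIs in Hcrt-high neurons, 14237 and 12947 in Pmch-high neurons, 7841 and 8238 in inhibitory neurons and 7806 and 8099 in other excitatory neurons. No neuron was both Hcrt-high and Pmch-high. In clustering without the members, 80 and 82 of the Hcrt-high neurons fell in 1 cluster and 80 and 54 of the Pmch-high neurons in another.

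Peptide precursors enter the secretory pathway and are cut after basic residues by the convertases, mainly in the trans-Golgi network and in maturing dense-core granules. Cpe, carboxypeptidase E, removes the basic residues left at the cut ends, and Pam amidates peptides that end in glycine, a step that many neuropeptides need for activity. Granins are acidic proteins of the granule lumen that help to form granules and are themselves cut into peptides. The lateral hypothalamic area is known for its hypocretin and melanin-concentrating hormone neurons, which act in arousal, feeding and sleep.

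Promoter sequence is shown for 4 members: Pcsk1, Scg2 and Chgb, which hold a full cAMP response element, and Pcsk2, the other convertase of regulated secretion, which does not. All 4 were called higher in Hcrt-high than in other excitatory neurons, as were Pam and Scg3, which also lack the full element. Vgf was called higher there too. Vgf and Cpe had no promoter entry, so their promoters were not searched. The Pcsk2 call was not kept in all alternative fits, as given below. Each stretch is the 100 bases before the RefSeq start on GRCm38.p6, with that element, TGACGTCA, in capitals. They lie at chr13:75089757-75089856 on the plus strand for Pcsk1, chr1:79440027-79440126 on the minus strand for Scg2, chr2:132781542-132781641 on the plus strand for Chgb and chr2:143546033-143546132 on the plus strand for Pcsk2.
Pcsk1: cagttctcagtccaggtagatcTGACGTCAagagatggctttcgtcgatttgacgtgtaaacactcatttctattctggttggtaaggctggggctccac
Scg2: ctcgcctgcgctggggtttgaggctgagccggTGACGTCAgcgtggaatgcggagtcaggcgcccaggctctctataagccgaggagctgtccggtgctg
Chgb: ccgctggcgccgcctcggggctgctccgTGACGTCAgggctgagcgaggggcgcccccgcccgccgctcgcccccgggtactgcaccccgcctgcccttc
Pcsk2: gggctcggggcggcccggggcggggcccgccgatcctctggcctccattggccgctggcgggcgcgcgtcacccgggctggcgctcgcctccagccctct
The full element began 78 bases before the start in Pcsk1, 68 in Scg2 and 72 in Chgb, and these were the 3 of the 8 members with a RefSeq promoter entry that held it anywhere in a window of 250 bases before to 50 after the start. Of all 32851 promoters in that table, 1.79% held it (588 promoters). The shorter TGACG core, searched on both strands, was in 7 of the 8 members and in 20.8% of all promoters, and in Scg2 and Chgb each copy of it lay inside the full element. Pcsk2 held 1 core and Pam held none. A match describes these letters and does not show a bound site.

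Neurons had the highest level of 7 of the 10 members, astrocyte-like cells that of Cpe and Scg3, and fibroblast-like cells that of Pam. Levels are given as CPM, the UMIs of a gene in the summed cells of a library per 1000000 UMIs of all genes there. Pcsk1 had 30.03 and 30.6 CPM in all neurons, against 1.10 and 1.35 CPM in mature oligodendrocyte-like cells (3 and 4 UMIs). Scg2, the granin secretogranin II, had 1089 and 1096 CPM in neurons and 24.3 and 27.1 CPM in mature oligodendrocyte-like cells. In the same order Vgf had 368 and 367 CPM against 10.3 and 9.82 CPM, and Pcsk2 had 275 and 219 CPM against 11.4 and 14.6 CPM. These cells are not known to secrete neuropeptides, and their levels are given as a background that includes free RNA.

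Cpe reached 2166 and 2494 CPM in astrocyte-like cells, against 737 and 634 CPM in neurons. Scg3, secretogranin III, which binds other granins, was likewise higher there, with 296 and 266 CPM in astrocyte-like cells and 121 and 109 CPM in neurons. In both libraries the 2 classes did not overlap for either gene, but classes come from clustering of the same cells and were not tested against each other. Pam was present outside neurons too, at 232 and 245 CPM in fibroblast-like cells and 90.5 and 84.1 CPM in endothelial-like cells, with 199.7 and 123 CPM in neurons. Oligodendrocyte precursor-like cells had 527 and 663 CPM of Cpe and 146 and 137 CPM of Scg5, and no UMI of Pcsk1. In microglia-like cells Scg2 had 16.4 and 313 CPM and Vgf 16.4 and 256 CPM, far apart between the libraries. That class held 69 and 39 cells.

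**Figure D1:**
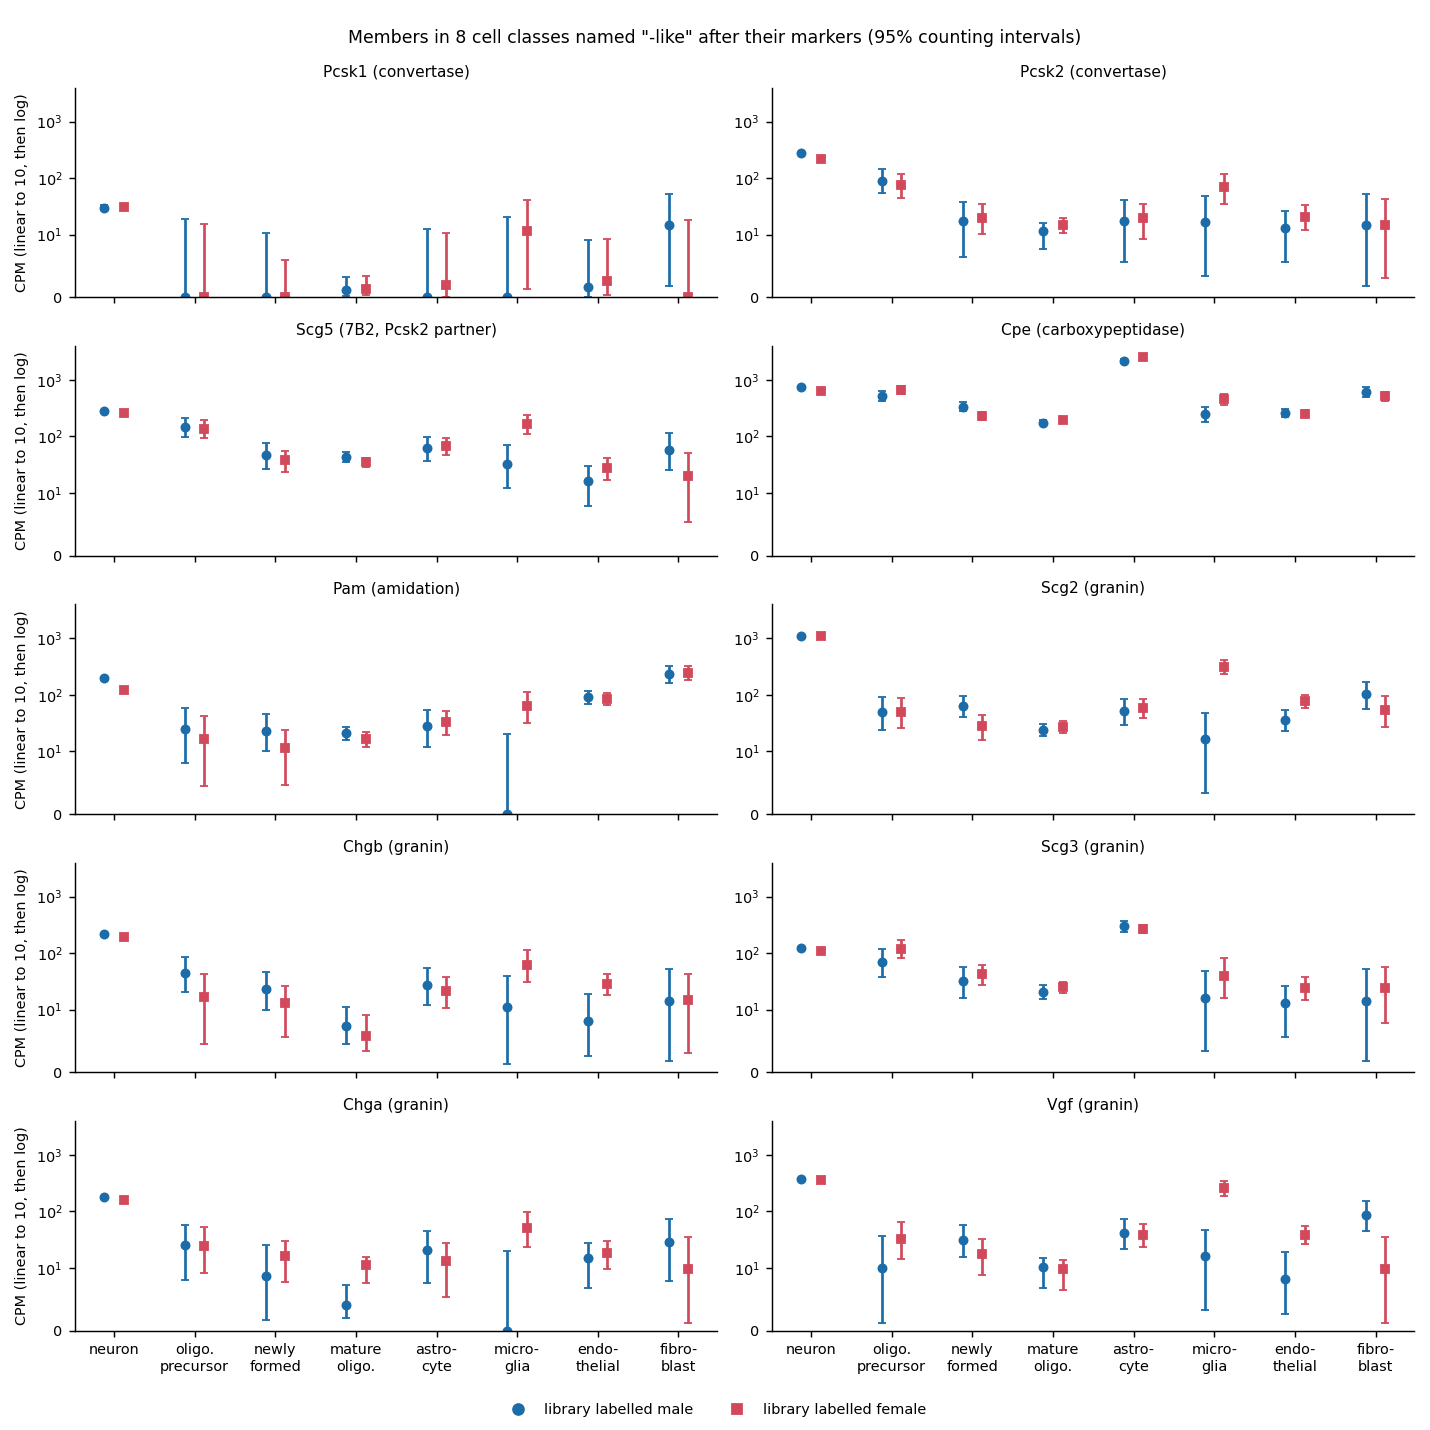
Levels of the 10 members in 8 cell classes named after their markers, as CPM on an axis that is linear to 10 and logarithmic above it; points are the 2 libraries (circles labelled male, squares labelled female) and bars are exact 95% counting intervals. Cpe and Scg3 are highest in astrocyte-like cells (2166 and 2494 CPM, and 296 and 266 CPM), and Scg2 and Vgf are highest in neurons.

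Between the neuron groups the members differed most in Hcrt-high neurons. Genes were called at an adjusted p under 0.05 by edgeR's quasi-likelihood test on sums per library and group, with the library as a block and Benjamini-Hochberg adjustment over all 12273 genes tested, and all 10 members were tested. Against other excitatory neurons, 8 of 10 members were called in Hcrt-high neurons, where 40.7% of all genes were called: 7 were higher, against 21.4% of genes, and 1 was lower, against 19.2%. In Pmch-high neurons 8 of 10 were called, where 36.3% of all genes were, with 4 higher and 4 lower against 19.1% and 17.1% of genes. In inhibitory neurons 4 of 10 were called, where 7.80% of all genes were, with 2 higher and 2 lower against 3.71% and 4.09%. The median log2 fold change of the 10 members was 1.74 in Hcrt-high, 0.16 in Pmch-high and 0.09 in inhibitory neurons, and that of all genes was -0.02, -0.03 and 0.00. All 3 comparisons share the other excitatory neurons, so their values stand side by side and are not independent of each other. Fold changes are after TMM scaling, which added 0.25 to the log2 ratio of CPM in Hcrt-high and 0.27 in Pmch-high neurons.

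**Figure D2:**
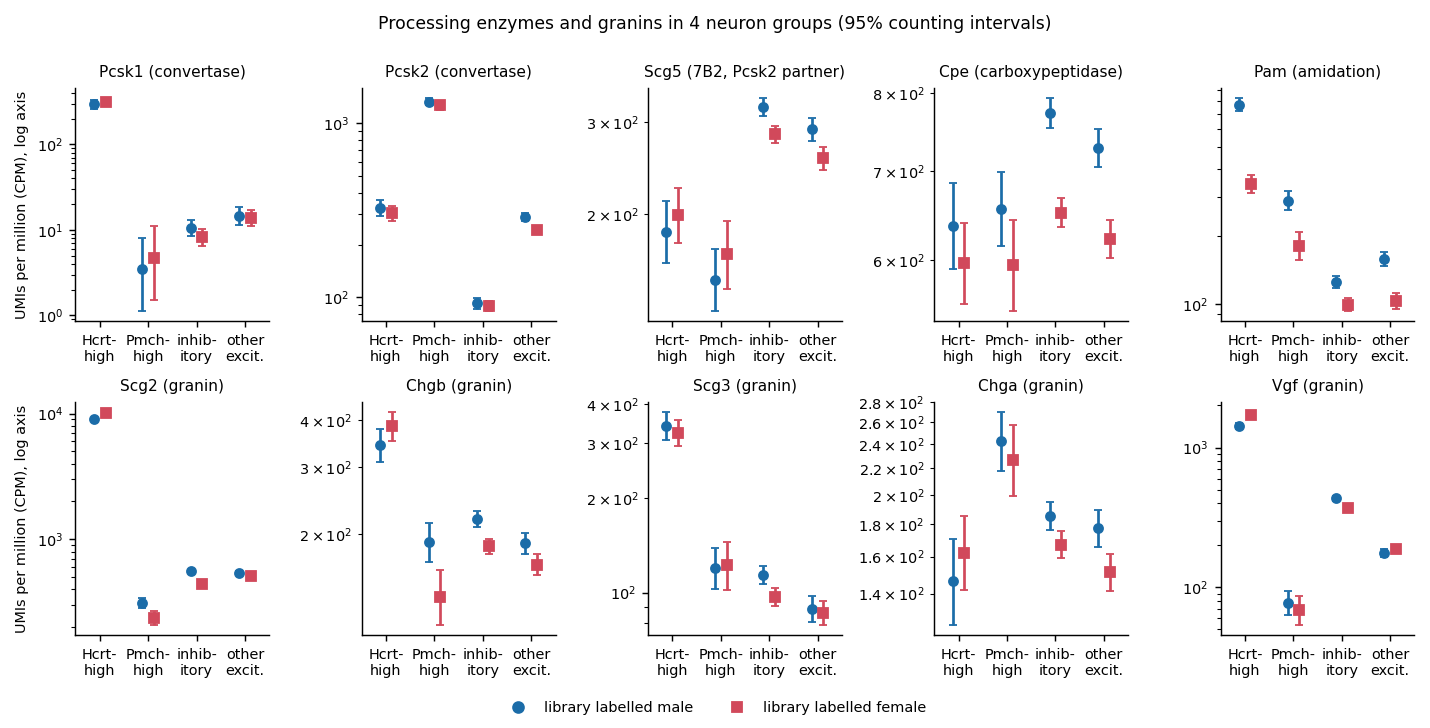
Level of each member in Hcrt-high, Pmch-high, inhibitory and other excitatory neurons, in CPM on a log axis that differs between panels; circles are the library labelled male, squares the library labelled female, and bars are exact 95% counting intervals. Pcsk1, Scg2 and Vgf stand far above the other groups in Hcrt-high neurons, and Pcsk2 in Pmch-high neurons.

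The 2 convertases split between Hcrt-high and Pmch-high neurons. Pcsk1 (proprotein convertase 1, also called PC1/3, chr13:75089826-75134861, plus strand) had 294 and 314 CPM in Hcrt-high neurons, 3.49 and 4.71 CPM in Pmch-high neurons, 10.5 and 8.28 CPM in inhibitory neurons and 14.6 and 13.9 CPM in other excitatory neurons. Both Hcrt-high sums lay above every other sum, and the Pmch-high sums rested on 5 and 5 UMIs. Its log2 fold change against other excitatory neurons was 4.67 ± 0.11 (SE) in Hcrt-high neurons (edgeR adjusted p = 1.27e-21). In Pmch-high neurons it was -1.55 ± 0.40 (edgeR adjusted p = 0.00293), and this call was lost with cells thinned to 3000 UMIs (-0.47, edgeR adjusted p = 0.825). Inhibitory neurons were lower by a log2 fold change of -0.61 ± 0.17 (edgeR adjusted p = 0.0222), a call that 5 alternatives ended.

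Pcsk2 (proprotein convertase 2, PC2, chr2:143546156-143816285, plus strand) followed another order. It had 326 and 305 CPM in Hcrt-high neurons, 1331 and 1268 CPM in Pmch-high neurons, 92.6 and 89.5 CPM in inhibitory neurons and 288 and 243 CPM in other excitatory neurons. Inhibitory neurons were the lowest of the 4 groups and Pmch-high neurons the highest, with no overlap in either library. The log2 fold change against other excitatory neurons was 2.56 ± 0.07 in Pmch-high neurons (edgeR adjusted p = 7.58e-21) and -1.54 ± 0.07 in inhibitory neurons (edgeR adjusted p = 3.79e-15). In Hcrt-high neurons it was 0.51 ± 0.08 (edgeR adjusted p = 1.49e-05), or 0.25 as a log2 ratio of CPM. Pcsk2 overlaps 2 antisense genes on the minus strand, Pcsk2os1 and Pcsk2os2. The use of strand in counting is not given in the sources used here. Whether reads of these genes entered the Pcsk2 counts was not checked.

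In single cells both convertases were found together in many Hcrt-high neurons and in few Pmch-high neurons, where Pcsk1 was rare. Whether they occurred together more often than their separate shares would give was not tested. With every cell thinned to 3000 UMIs, a UMI of Pcsk1 was found in 52.1% and 63.0% of Hcrt-high neurons (38 and 46 of 73 and 73 cells) and one of Pcsk2 in 54.8% and 58.9%. Both were found in 35.6% and 37.0% of the same cells, with exact 95% intervals of 24.7% to 47.7% and 26.0% to 49.1%. Among Pmch-high neurons 84.2% and 85.2% had a UMI of Pcsk2 and 1.32% and 3.70% one of Pcsk1. Pcsk1 without Pcsk2 was found in 0 of 76 and 0 of 54 thinned Pmch-high neurons, and the 1 and 2 cells with Pcsk1 also had Pcsk2. Before thinning Pcsk1 had a UMI in 4 of 85 and 4 of 61 Pmch-high neurons, so these shares count cells with a UMI at that depth and not cells that express the gene. The intervals cover counting error only.

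Inhibitory and other excitatory neurons carried Pcsk2 more often than Pcsk1 at the same depth. Pcsk2 was found in 22.3% and 22.7% of inhibitory neurons and in 49.1% and 43.6% of other excitatory neurons. Pcsk1 was found in 3.08% and 2.79% of inhibitory neurons and in 2.96% and 3.55% of other excitatory neurons. In mature oligodendrocyte-like cells, thinned alike, 3.53% and 3.32% had a UMI of Pcsk2 and 0.177% and 0.349% one of Pcsk1, so both neuron groups lay above that background for both genes. Before thinning the mature oligodendrocyte-like cells had median depths of 4170 and 4643 UMIs, and unthinned shares of cells with a UMI of Pcsk2 were 42.5% and 44.9% in inhibitory neurons and 4.93% and 6.39% in mature oligodendrocyte-like cells.

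The convertase partner and the trimming enzymes moved less, apart from Pam. Scg5 encodes 7B2, which chaperones Pcsk2 and holds it inactive until it is needed (chr2:113776362-113829121, minus strand). It had 185 and 199 CPM in Hcrt-high neurons, 150 and 168 CPM in Pmch-high neurons, 321 and 285 CPM in inhibitory neurons and 291 and 256 CPM in other excitatory neurons. Both peptide-rich groups lay below both transporter groups, so the Pmch-high neurons, highest in Pcsk2, were lowest in its partner. Its log2 fold change was -0.53 ± 0.10 in Pmch-high neurons (edgeR adjusted p = 7.13e-05), and -0.51 with an edgeR adjusted p = 0.0586 in thinned cells. In Hcrt-high neurons it was -0.25 ± 0.09 (edgeR adjusted p = 0.0326), and 6 alternatives ended that call. The value for Scg5 in inhibitory neurons was 0.15 ± 0.06 and was not called (edgeR adjusted p = 0.184).

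Cpe (chr8:64592542-64693054, minus strand) was the most even member. It had 637 and 597 CPM in Hcrt-high neurons, 656 and 595 CPM in Pmch-high neurons, 773 and 651 CPM in inhibitory neurons and 728 and 622 CPM in other excitatory neurons. The 2 peptide-rich groups overlapped each other and the other excitatory neurons, whose range also overlapped that of the inhibitory neurons. None of the 3 log2 fold changes was called, at 0.13 ± 0.07 in Hcrt-high (edgeR adjusted p = 0.132), 0.15 ± 0.07 in Pmch-high (edgeR adjusted p = 0.0740) and 0.08 ± 0.06 in inhibitory neurons (edgeR adjusted p = 0.512). The first 2 change sign without TMM scaling, at -0.13 and -0.11 as log2 ratios of CPM.

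Pam (peptidylglycine alpha-amidating monooxygenase, chr1:97795114-98095646, minus strand) was higher in both peptide-rich groups. It had 773 and 344 CPM in Hcrt-high neurons, 289 and 181 CPM in Pmch-high neurons, 125 and 99.2 CPM in inhibitory neurons and 158 and 103 CPM in other excitatory neurons. Each peptide-rich sum lay above every sum of the transporter groups, but the libraries were far apart. On the log2 scale its fold change was 2.31 ± 0.11 in Hcrt-high (edgeR adjusted p = 4.19e-15) and 1.11 ± 0.13 in Pmch-high neurons (edgeR adjusted p = 1.95e-07), and -0.20 ± 0.11 in inhibitory neurons, which was not called (edgeR adjusted p = 0.316). The level in the library labelled male was 2.25 times that in the library labelled female in Hcrt-high neurons, 1.60 times in Pmch-high, 1.26 times in inhibitory and 1.53 times in other excitatory neurons. The largest share of 1 cell in the Hcrt-high sum of the library labelled male was 10.6% (93 of 881 UMIs). Pam overlaps 5 other annotated genes, and Scg3 overlaps 1.

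Among the granins Scg2 (chr1:79434669-79440120, minus strand) had the widest range. It had 9082 and 10075 CPM in Hcrt-high neurons, 313 and 238 CPM in Pmch-high neurons, 555 and 439 CPM in inhibitory neurons and 544 and 508 CPM in other excitatory neurons. The median Hcrt-high cell held 118 and 146 UMIs of Scg2, and no cell gave more than 4.67% and 3.82% of its sum. The log2 fold change against other excitatory neurons was 4.45 ± 0.13 in Hcrt-high neurons (edgeR adjusted p = 3.70e-20). In Pmch-high neurons it was -0.66 ± 0.13 (edgeR adjusted p = 0.000224), and -0.33 with an edgeR adjusted p = 0.2504 in thinned cells. In inhibitory neurons it was -0.09 ± 0.11 and not called (edgeR adjusted p = 0.756).

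Chgb, chromogranin B (chr2:132781278-132795079, plus strand), had 344 and 385 CPM in Hcrt-high neurons, 190 and 137 CPM in Pmch-high neurons, 220 and 185 CPM in inhibitory neurons and 189 and 166 CPM in other excitatory neurons. It was called only in Hcrt-high neurons of these 3 comparisons, with a log2 fold change of 1.31 ± 0.09 (edgeR adjusted p = 6.89e-12), against 0.16 ± 0.11 in Pmch-high (-0.14 as a log2 ratio of CPM, edgeR adjusted p = 0.259) and 0.19 ± 0.07 in inhibitory neurons (edgeR adjusted p = 0.139). Scg3 (chr9:75643189-75684056, minus strand) had 341 and 323 CPM in Hcrt-high neurons, 120 and 122 CPM in Pmch-high neurons, 114 and 96.7 CPM in inhibitory neurons and 88.8 and 86.4 CPM in other excitatory neurons. Every group lay above the other excitatory neurons, and Hcrt-high neurons lay furthest above. For Scg3 the log2 fold change was 2.17 ± 0.08 in Hcrt-high (edgeR adjusted p = 3.79e-17), 0.72 ± 0.11 in Pmch-high (edgeR adjusted p = 6.31e-06) and 0.26 ± 0.07 in inhibitory neurons (edgeR adjusted p = 0.0244). Thinning ended the Pmch-high call (0.29, edgeR adjusted p = 0.558), and 4 alternatives ended the inhibitory one, which turned to -0.31 (edgeR adjusted p = 0.000356) with Hcrt-high and Pmch-high neurons kept in their transporter groups.

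Chga, chromogranin A (chr12:102554969-102565028, plus strand), was the granin that was highest in Pmch-high neurons. It had 146 and 162 CPM in Hcrt-high neurons, 243 and 227 CPM in Pmch-high neurons, 185 and 167 CPM in inhibitory neurons and 177 and 151 CPM in other excitatory neurons. Its log2 fold change was 0.78 ± 0.09 in Pmch-high neurons (edgeR adjusted p = 5.91e-08), and it was not called in Hcrt-high neurons (0.18 ± 0.10, or -0.09 as a log2 ratio of CPM, edgeR adjusted p = 0.150) or in inhibitory neurons (0.11 ± 0.07, edgeR adjusted p = 0.417). Vgf, a granin-like precursor whose transcription follows neuronal activity and neurotrophins (chr5:137026392-137033351, plus strand), had 1417 and 1718 CPM in Hcrt-high neurons, 77.4 and 68.8 CPM in Pmch-high neurons, 432 and 366 CPM in inhibitory neurons and 176 and 189 CPM in other excitatory neurons. The 4 groups did not overlap. For Vgf the log2 fold change was 3.36 ± 0.09 in Hcrt-high (edgeR adjusted p = 2.75e-20), -1.04 ± 0.15 in Pmch-high (edgeR adjusted p = 4.09e-06) and 1.13 ± 0.09 in inhibitory neurons (edgeR adjusted p = 2.70e-10). With Hcrt-high and Pmch-high neurons kept in their transporter groups the inhibitory value was 0.07 (edgeR adjusted p = 0.502).

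Early response genes are switched on in neurons within minutes of activity or of dissociation. Of 10 such genes, 5 were called in Hcrt-high neurons against other excitatory neurons, all higher, where 21.4% of all genes were called higher, among them Nr4a3 at 3.43 ± 0.24, Fos at 2.96 ± 0.22 and Fosl2 at 2.84 ± 0.22 on the log2 scale. In Pmch-high neurons 5 were called, all lower, where 17.1% of all genes were called lower, among them Nr4a3 at -2.61 ± 0.83 and Egr1 at -1.74 ± 0.24. The list's median was 0.94 in Hcrt-high and -1.22 in Pmch-high neurons. Only 16 and 17 of 83 and 83 Hcrt-high neurons had no UMI of Fos, Fosb, Fosl2, Npas4, Arc, Nr4a1 and Nr4a3, against 442 and 500 of 600 and 689 other excitatory neurons. Hcrt-high neurons were also deeper, as given above. In neurons without those UMIs, the log2 fold changes of Hcrt-high neurons were 4.78 for Pcsk1, 3.96 for Scg2, 3.53 for Vgf, 3.45 for Pam and 1.92 for Scg3, all called, while Pcsk2 was at -0.64 and not called (edgeR adjusted p = 0.177). Those 16 and 17 Hcrt-high neurons held 88940 and 99332 UMIs in all. The 442 and 500 other excitatory neurons held 3484798 and 4091464. Per cell the Hcrt-high neurons were thus the shallower group in that alternative. Its share of all genes called is not given here. With cells thinned to 3000 UMIs, 7 members were called in Hcrt-high and 4 in Pmch-high neurons. Calls over all genes also fell with thinning in both groups, with counts given at the end. In Hcrt-high neurons the thinned values were 4.88 for Pcsk1, 4.32 for Scg2 and 3.32 for Vgf, and in Pmch-high neurons 2.31 for Pcsk2, all called.

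Set directly against each other, Hcrt-high and Pmch-high neurons differed in 8 of 10 members, where 28.2% of all genes were called. Of these, 6 were higher in Hcrt-high neurons, against 13.6% of genes, and 2 were lower, against 14.7%. The log2 fold change of Hcrt-high over Pmch-high neurons was 6.23 ± 0.21 for Pcsk1 (edgeR adjusted p = 3.15e-18), 5.11 ± 0.14 for Scg2 (edgeR adjusted p = 1.93e-20) and 4.40 ± 0.13 for Vgf (edgeR adjusted p = 1.04e-19). Scg3, Pam and Chgb were higher by 1.45 ± 0.10, 1.20 ± 0.13 and 1.14 ± 0.11. The 2 members lower in Hcrt-high neurons were Pcsk2, at -2.05 ± 0.08 (edgeR adjusted p = 2.97e-17), and Chga, at -0.60 ± 0.11 (edgeR adjusted p = 8.20e-05), and the call of Chga was lost in thinned cells (-0.28, edgeR adjusted p = 0.586). Cpe stood at -0.03 ± 0.07 and Scg5 at 0.29 ± 0.12, neither called (edgeR adjusted p = 0.842 and 0.0693).

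Of 16 other enzymes and inhibitors of precursor processing, 9 were called in Hcrt-high against other excitatory neurons, 6 higher and 3 lower, with a list median of 0.13. That is not far from the 40.7% of all genes called there, so the values describe single genes. Pcsk6, a convertase of the constitutive pathway, was higher by 3.62 ± 0.23, Qpct, which forms the pyroglutamate at some peptide ends, by 1.59 ± 0.14, and Pcsk1n, which encodes the Pcsk1 inhibitor proSAAS, by 0.92 ± 0.09. Pcsk5, another convertase, was lower at -3.79 ± 0.63, and the peptide-degrading membrane enzyme Mme, neprilysin, at -3.78 ± 0.88. In Pmch-high neurons 7 of 16 were called, where 36.3% of all genes were, with a list median of 0.14 and with Qpct at 1.66 ± 0.14, Ece1, an endothelin-converting enzyme, at 1.22 ± 0.14, Cpd, carboxypeptidase D, at 0.98 ± 0.14 and Pcsk1n at -0.27 ± 0.10. Hcrt-high against Pmch-high neurons, Pcsk6 was at 3.01 ± 0.31, Pcsk1n at 1.18 ± 0.10 and Cpd at -1.03 ± 0.19. In inhibitory neurons 4 of 16 were called, all higher, where 3.71% of all genes were called higher, with the neuronal metalloprotease Ecel1 at 2.81 ± 0.09 and Mme at 1.40 ± 0.19.

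Of 16 granule and release genes, 11 were called in Hcrt-high neurons, 7 higher and 4 lower, and 8 in Pmch-high neurons, 7 higher and 1 lower, against other excitatory neurons. Their medians were 0.16 and 0.01, and 40.7% and 36.3% of all genes were called. Ptprn, a granule membrane protein, was higher by 2.09 ± 0.07 in Hcrt-high and 0.95 ± 0.07 in Pmch-high neurons, and Syt4, a synaptotagmin of dense-core granules, by 2.01 ± 0.09 and 1.26 ± 0.09. Syt7, a calcium sensor, was at 0.97 ± 0.08 in Hcrt-high and -0.84 ± 0.12 in Pmch-high neurons. Of 10 genes of the early secretory pathway, 7 were called in Hcrt-high and 9 in Pmch-high neurons, all of them higher, where 21.4% and 19.1% of all genes were called higher. Their medians were 0.71 and 1.06. Creb3l1, a transcription factor of secretory capacity, had the largest values of that list in both, at 6.12 ± 0.24 and 4.40 ± 0.34.

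To extend the comparison beyond Hcrt and Pmch, neurons were grouped by the precursor that led each cell with 0.3% or more of its UMIs. Besides Hcrt (83 and 83 cells) and Pmch (84 and 61), 4 precursors had at least 10 cells in each library: Cartpt (33 and 27), Gal (27 and 18), Sst (69 and 73) and Trh (25 and 23). They were set against low-peptide neurons, in which every precursor was under 0.1% (1250 and 1542 cells), and 8897 genes were tested in 1 fit. Members called were 8 of 10 in Hcrt-led neurons, where 48.4% of all genes were called, 7 in Pmch-led (45.5%), 7 in Cartpt-led (15.3%), 4 in Trh-led (8.52%), 3 in Sst-led (4.56%) and 0 in Gal-led neurons (1.91%). In Gal-led neurons no member had an unadjusted p under 0.05, and DESeq2 called 0 as well. Standard errors of the members there ran from 0.14 for Cpe to 0.88 for Pcsk1, so smaller differences could be missed. All 6 comparisons share the low-peptide neurons. Mean Slc32a1 over both libraries was 359 CPM in Cartpt-led, 340 in Gal-led, 293 in Sst-led and 273 in low-peptide neurons. It was 14.8 in Hcrt-led, 11.8 in Pmch-led and 2.50 CPM in Trh-led neurons. Mean Slc17a6 was 10.9 CPM in Cartpt-led, 27.1 in Gal-led, 151 in Sst-led and 191 in low-peptide neurons. It was 246 in Hcrt-led, 102 in Pmch-led and 490 CPM in Trh-led neurons. Transmitter class and leading peptide were not separated here.

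Cartpt-led neurons, which make the precursor of the CART peptides, were higher in Pcsk1 and lower in Pcsk2 than low-peptide neurons. They carried mainly Slc32a1, as given above, and low-peptide neurons carried both transporters, so transmitter class was not separated from leading peptide. Pcsk1 had 60.9 and 51.6 CPM in Cartpt-led neurons (20 and 15 UMIs) and 9.16 and 7.90 CPM in low-peptide neurons. Pcsk2 had 30.5 and 24.1 CPM in Cartpt-led neurons (10 and 7 UMIs), against 152 and 134 CPM in low-peptide neurons. Neither gene's sums overlapped, and the log2 fold changes were 2.80 ± 0.33 for Pcsk1 (edgeR adjusted p = 1.04e-10) and -2.32 ± 0.29 for Pcsk2 (edgeR adjusted p = 5.12e-10). Vgf had 1718 and 1785 CPM in Cartpt-led neurons, beside those of Hcrt-led neurons (1417 and 1718 CPM), and 229 and 215 CPM in low-peptide neurons, a log2 fold change of 3.05 ± 0.11 (edgeR adjusted p = 1.13e-39). With cells thinned to 3000 UMIs the shares of Cartpt-led cells with a UMI gave opposite orders of the convertases in the 2 libraries, at 6.45% and 18.5% for Pcsk1 and 12.9% and 7.41% for Pcsk2 (31 and 27 cells). Scg3 was at 1.47 ± 0.15, Scg2 at 1.09 ± 0.12, Pam at 0.79 ± 0.20 and Chga at -1.06 ± 0.20, all called, and the Pam call ended under 3 alternatives. These neurons also carried Nts at 5.81 ± 0.09 and Tac1 at 4.35 ± 0.12, and among the early response genes Fosb at 2.80 ± 0.47 and Fosl2 at 2.55 ± 0.39. In the 12 and 10 Cartpt-led cells without early response UMIs the same number of members, 7, was called. The share of all genes called in that alternative is not given here.

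Trh-led neurons, which make the precursor of thyrotropin-releasing hormone, joined Pmch-led neurons in high Pcsk2. It had 823 and 765 CPM in Trh-led neurons and 1332 and 1268 CPM in Pmch-led neurons, against 152 and 134 CPM in low-peptide neurons. On the log2 scale its fold change was 2.47 ± 0.13 in Trh-led neurons (edgeR adjusted p = 7.15e-29). At 3000 UMIs per cell Pcsk2 was found in 87.5% and 85.0% of Trh-led cells, and Pcsk1 in 0 of 24 and 0 of 20. Before thinning Pcsk1 had a UMI in 4 of 25 and 3 of 23 of them. Scg2 was higher by 1.11 ± 0.12 (edgeR adjusted p = 4.84e-12) and Pam by 1.05 ± 0.21 (edgeR adjusted p = 0.000104). A single cell gave 26 of the 56 Pam UMIs (46.4%) of Trh-led neurons in the library labelled female, and the fold change without that cell was not computed. Vgf was lower at -0.86 ± 0.21 (edgeR adjusted p = 0.00262), a call lost in thinned cells and in cells without early response UMIs. Trh-led neurons carried mainly Slc17a6, as given above, so transmitter class was not separated from leading peptide here either.

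Sst-led neurons, which make the somatostatin precursor, differed less. Vgf had 355 and 369 CPM in Sst-led neurons and 229 and 215 CPM in low-peptide neurons, a log2 fold change of 0.75 ± 0.13 (edgeR adjusted p = 8.10e-06). Without early response UMIs that value was 0.07 (edgeR adjusted p = 0.904). Scg2 was at 0.63 ± 0.11 (edgeR adjusted p = 2.38e-05) and Pcsk2 at 0.51 ± 0.14 (edgeR adjusted p = 0.0187), and both calls ended with the leading precursor set at 0.1% of UMIs (0.30 and 0.24). Gal-led neurons, with the precursor of galanin, had 171 and 326 CPM of Vgf against 229 and 215 CPM in low-peptide neurons, with overlapping sums.

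**Figure D3:**
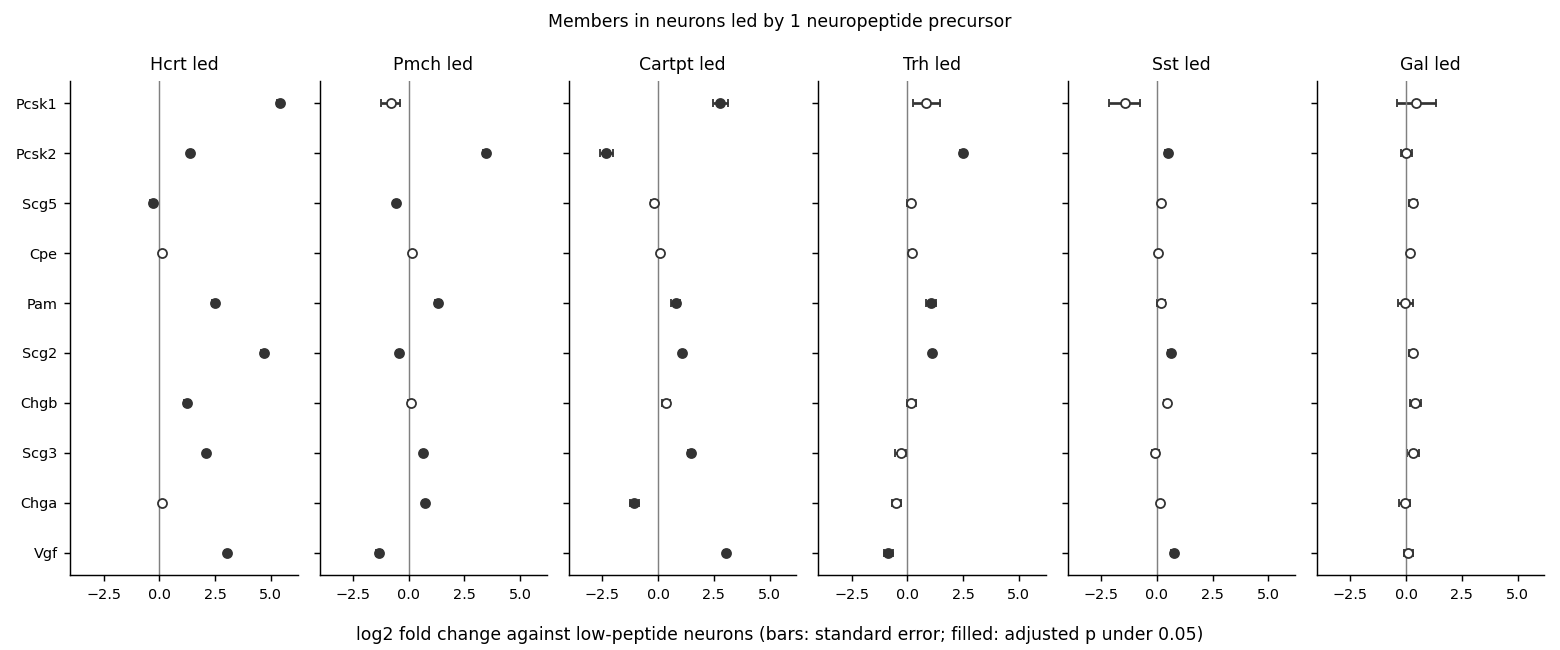
Log2 fold change of each member in neurons led by 1 precursor against low-peptide neurons, with standard errors; filled points have an adjusted p under 0.05. Pcsk1 and Pcsk2 lie on opposite sides of 0 in Cartpt-led neurons (2.80 and -2.32), and no Cpe point is filled.

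The ratio of the 2 convertase transcripts was highest in Cartpt-led and Hcrt-led neurons and lowest in Pmch-led neurons in both libraries. Per 100 Pcsk2 UMIs there were 200 and 214 Pcsk1 UMIs in Cartpt-led neurons and 90.1 and 103 in Hcrt-led neurons. Gal-led neurons had 7.69 and 8.33, Trh-led 1.87 and 1.96, Sst-led 0.855 and 2.41, Pmch-led 0.262 and 0.371, and low-peptide neurons 6.01 and 5.89. The Cartpt ratio rested on 20 and 15 Pcsk1 UMIs over 10 and 7 Pcsk2 UMIs, and with the leading precursor at 0.1% of UMIs it was 96.2 and 95.2, against 87.5 and 102 in Hcrt-led neurons, so the order of these 2 groups was then not the same in both libraries. Trh-led and Sst-led neurons overlapped, and the Gal, Trh and Sst ratios rested on 1 to 4 Pcsk1 UMIs. The ratio compares groups only, since capture near the 3′ end can differ between the genes. By transmitter it was 11.4 and 9.25 in inhibitory neurons and 5.05 and 5.72 in other excitatory neurons.

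**Figure D4:**
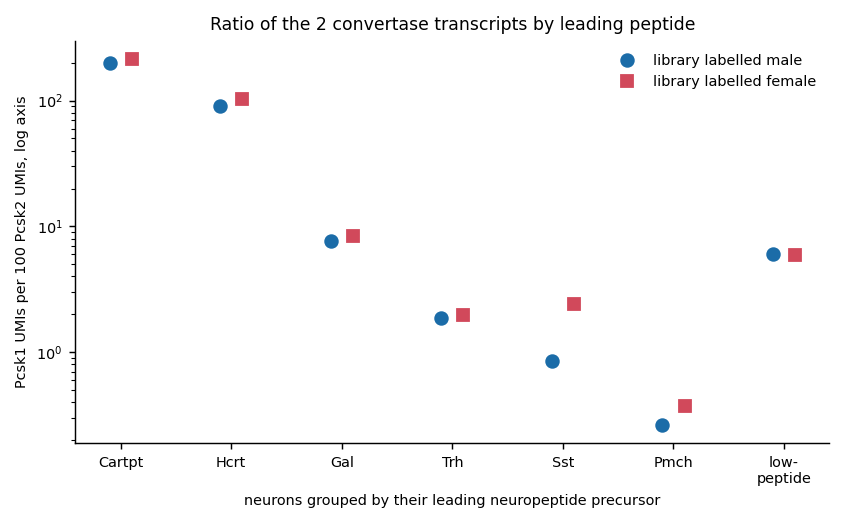
Pcsk1 UMIs per 100 Pcsk2 UMIs on a log axis in neurons grouped by their leading precursor and in low-peptide neurons; circles are the library labelled male and squares the library labelled female. Cartpt-led neurons stand at 200 and 214 and Pmch-led neurons at 0.262 and 0.371.

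The members were then related to peptide load, the UMIs of 45 precursor genes per 10000 other UMIs of a cell, of which 42 had a UMI in neurons and none is a member. Bins 1 to 4, each with an equal number of cells, were taken by load within library and transmitter class, among inhibitory and other excitatory neurons, and the highest bin was compared with the lowest in 1 fit over 11184 genes. Median load was 40.0 and 34.9 in the highest bin of inhibitory neurons and 4.17 and 4.37 in the lowest. In other excitatory neurons it was 41.7 and 32.7 in the highest bin and 4.44 and 4.25 in the lowest. The lowest bins were close to mature oligodendrocyte-like cells (4.87 and 4.34). Pmch and Hcrt led the precursor UMIs of the lowest bins, as they did in those cells. They also led the second bin of both classes in both libraries. Pmch still came first in the third bin. It gave 15.3% and 15.1% of precursor UMIs there in inhibitory neurons, and 14.6% and 15.9% in other excitatory neurons. How much of the load in these bins came from free RNA was not tested. Cartpt, Sst and Gal led the highest bin of inhibitory neurons, and Avp, Trh and Sst (library labelled male) or Oxt, Sst and Trh (library labelled female) that of other excitatory neurons. These orders are of summed UMIs, which few cells can set. The largest load of a cell in the highest bin of other excitatory neurons was 2072 and 3813, far above the medians.

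In inhibitory neurons 6 of 10 members were called, where 10.2% of all genes were, and all 6 were higher at high load, against 6.10% of genes. In other excitatory neurons 6 of 10 were called, where 4.87% of all genes were, and again all 6 were higher, against 2.89%. The members' median log2 fold change was 0.34 in inhibitory and 0.41 in other excitatory neurons, with 0.00 and 0.00 for all genes. The 6 calls in inhibitory neurons became 2 by DESeq2, 2 in thinned cells, 2 without neurons led by 1 precursor and 3 without the library block. In other excitatory neurons they became 3 by DESeq2, 3 in thinned cells, 3 in cells without early response UMIs and 3 without the block. By DESeq2 the calls over all genes fell in both classes too, with counts given at the end. Shares of all genes called under the other alternatives for load are not given here. Chga, at -0.11 ± 0.09 and -0.05 ± 0.11, and Chgb, at 0.22 ± 0.09 and 0.25 ± 0.11, were called in neither class (edgeR adjusted p = 0.531, 0.903, 0.0968 and 0.194).

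Vgf and Scg2 were the members called in both classes under each alternative that gave a test. Over the bins from low to high, Vgf had 247, 266, 409 and 811 CPM in inhibitory neurons of the library labelled male and 251, 228, 286 and 707 CPM in those of the library labelled female. In other excitatory neurons it had 134, 113, 181 and 274 CPM, and 146, 158, 206 and 246 CPM. Most of the difference in inhibitory neurons lay between the third bin and the fourth, and the bins did not overlap between the highest and the others. The log2 fold change of high over low load was 1.63 ± 0.07 in inhibitory neurons (edgeR adjusted p = 1.20e-29) and 0.89 ± 0.10 in other excitatory neurons (edgeR adjusted p = 3.89e-10).

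Scg2 had 452, 442, 561 and 771 CPM over the bins of inhibitory neurons of the library labelled male and 376, 349, 423 and 612 CPM in those of the library labelled female. It had 499, 410, 560 and 701 CPM, and 439, 404, 511 and 673 CPM, in other excitatory neurons. In each of the 4 series the second bin was the lowest and the fourth the highest. Its log2 fold change was 0.77 ± 0.06 in inhibitory (edgeR adjusted p = 1.34e-15) and 0.57 ± 0.07 in other excitatory neurons (edgeR adjusted p = 2.85e-09).

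Pcsk2 went with load in other excitatory neurons. From the lowest bin to the highest it had 242, 260, 252 and 397 CPM, and 174, 220, 255 and 321 CPM, in other excitatory neurons. In inhibitory neurons it had 90.7, 69.9, 111 and 99.1 CPM, and 86.7, 85.8, 89.7 and 95.7 CPM, with no steady order. The log2 fold change was 0.81 ± 0.09 in other excitatory neurons (edgeR adjusted p = 2.15e-10) and 0.17 ± 0.11 in inhibitory neurons (edgeR adjusted p = 0.427). Pcsk1 had 19.8 and 16.4 CPM in the highest and 8.11 and 5.15 CPM in the lowest bin of inhibitory neurons, a log2 fold change of 1.48 ± 0.30 (edgeR adjusted p = 0.000236). This call of Pcsk1 ended by DESeq2 (DESeq2 adjusted p = 0.133), in thinned cells (edgeR adjusted p = 0.137) and without neurons led by 1 precursor (0.83, edgeR adjusted p = 0.236). In other excitatory neurons Pcsk1 was at 0.96 ± 0.30 (edgeR adjusted p = 0.0498), and 8 alternatives ended that call, 1 of them with a negative value.

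The remaining calls with load were smaller. Cpe was higher by 0.20 ± 0.06 in inhibitory (edgeR adjusted p = 0.0116) and 0.21 ± 0.06 in other excitatory neurons (edgeR adjusted p = 0.0361), Pam by 0.45 ± 0.12 (edgeR adjusted p = 0.00988) and 0.58 ± 0.15 (edgeR adjusted p = 0.00785). Scg3 was higher by 0.45 ± 0.10 in inhibitory neurons (edgeR adjusted p = 0.00128) and stood at 0.01 ± 0.14 in other excitatory neurons. Scg5 was at 0.17 ± 0.07 and 0.26 ± 0.08 (edgeR adjusted p = 0.126 and 0.0568), called in neither. DESeq2 ended these calls of Cpe and Pam in both classes and of Scg3 in inhibitory neurons.

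**Figure D5:**
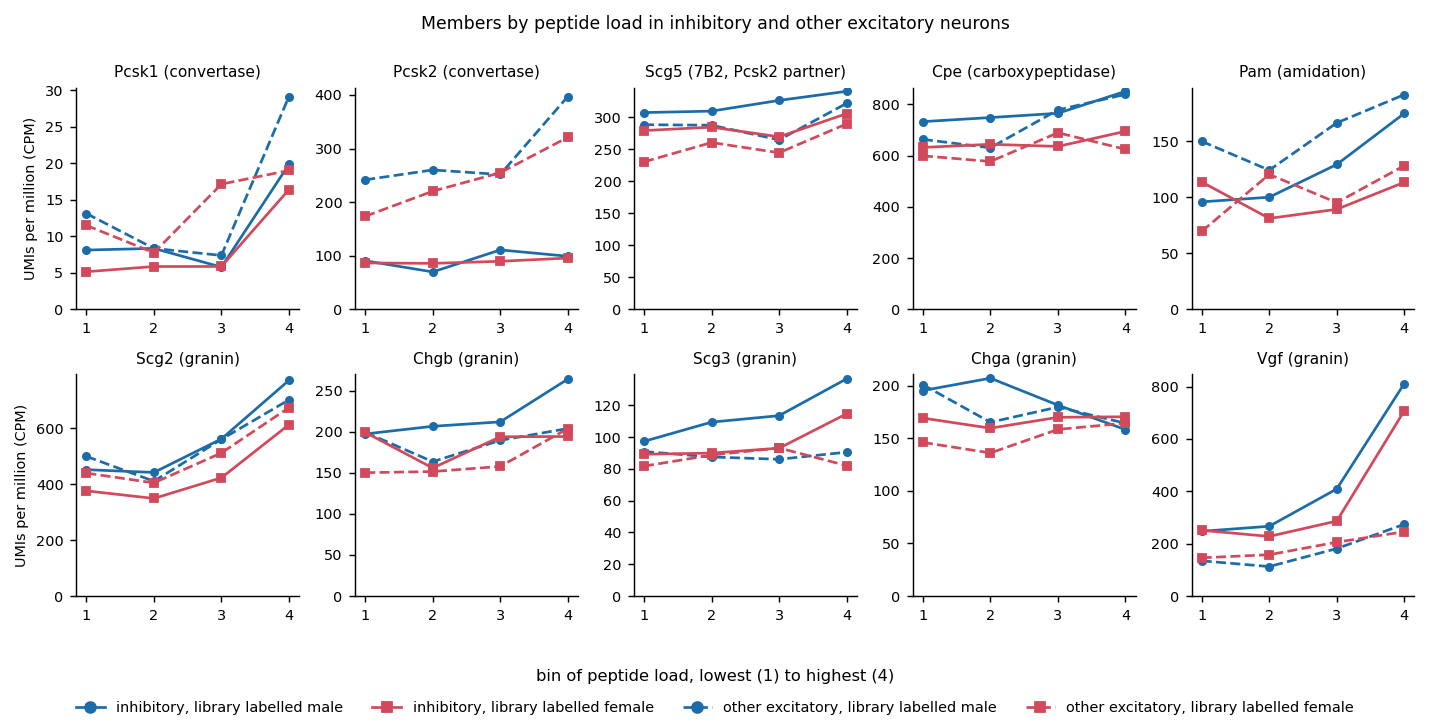
Level of each member in CPM over the 4 bins of peptide load, from lowest to highest; solid lines are inhibitory neurons, dashed lines other excitatory neurons, circles the library labelled male and squares the library labelled female. Vgf reaches 811 and 707 CPM in the fourth bin of inhibitory neurons, and Pcsk2 reaches 397 and 321 CPM in that bin of other excitatory neurons.

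The 2 transmitter classes differed in how Vgf and Pcsk2 went with load. Of 10 members these 2 were called for the difference between the load effects, where 2.03% of all genes were called. For Vgf the log2 difference of inhibitory minus other excitatory neurons was 0.74 ± 0.12 (edgeR adjusted p = 3.53e-05), and for Pcsk2 it was -0.65 ± 0.14 (edgeR adjusted p = 0.00367). In all, 5 alternatives ended the call of Pcsk2 and 2 that of Vgf. Without neurons led by a single precursor neither was called, at 0.25 for Vgf (edgeR adjusted p = 0.586) and -0.26 for Pcsk2 (edgeR adjusted p = 0.657). The load effects of Vgf and Scg2 in inhibitory neurons were 1.11 and 0.57 in that alternative, and both were called.

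Of 15 other processing enzymes tested, 5 were called in inhibitory and 3 in other excitatory neurons, all higher, where 6.10% and 2.89% of all genes were called higher, with Ecel1 at 1.97 ± 0.09 in inhibitory neurons and Pcsk5 at 1.29 ± 0.33 in other excitatory neurons. Of 16 granule genes, 8 were called in inhibitory neurons, 4 higher and 4 lower. Over all 11184 genes 10.2% were called there, 682 higher and 455 lower. In other excitatory neurons 4 granule genes were called, all higher, where 4.87% of all genes were called and 2.89% were called higher. The list's medians were -0.04 and 0.04. Ptprn was at 0.97 ± 0.07 and 0.62 ± 0.08 and Resp18, a granule protein, at 0.77 ± 0.06 and 0.57 ± 0.07. Snap25, a protein of synaptic vesicle release, was lower in inhibitory neurons at -0.42 ± 0.05. Of 10 early response genes, 4 were called in each class, all higher, against 6.10% and 2.89% of all genes called higher. Among them were Fosb at 1.53 ± 0.37 and Fosl2 at 1.35 ± 0.31 in inhibitory neurons. In other excitatory neurons Nr4a3 was at 2.46 ± 0.59 and Fos at 1.26 ± 0.19. Fos was at 0.08 ± 0.15 in inhibitory neurons and not called (edgeR adjusted p = 0.832). In cells without early response UMIs Vgf, Scg2, Pcsk1 and Cpe were still called in inhibitory neurons, and Pam and Scg3 were not. In other excitatory neurons Vgf, Scg2 and Pcsk2 were still called, and Pam, Cpe and Pcsk1 were not.

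Across single cells thinned to 3000 UMIs, the UMIs of the 10 members together had a Spearman rho with load of 0.302 and 0.272 in inhibitory neurons (941 and 1077 cells) and 0.193 and 0.273 in other excitatory neurons (574 and 677 cells). Within Hcrt-high neurons it was 0.434 and 0.539 (73 and 73 cells), and within Pmch-high neurons 0.194 and 0.407 (76 and 54 cells). Scg2 had 0.528 and 0.484 in Hcrt-high neurons, and Pcsk2 had 0.341 and 0.641 in Pmch-high neurons. Scg2 gave most of the members' UMIs in Hcrt-high neurons, so its rho and the joint rho are not independent. Some members changed sign between the libraries. Among them were Pam in Hcrt-high neurons, at -0.096 and 0.412, and Vgf in Pmch-high neurons, at 0.261 and -0.117. Cells of a library share its depth and free RNA: in Pmch-high neurons Pcsk2 had a rho of 0.380 and 0.604 with depth before thinning. For Scg2 in Hcrt-high neurons the rho with depth was 0.278 and 0.318.

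Over the 14 sums of the leading-peptide groups and low-peptide neurons, the members fell into sets by the Pearson r of log2(CPM + 1). Pcsk1 had r of 0.882 with Scg2, 0.862 with Scg3 and 0.767 with Vgf, and -0.268 with Pcsk2. Pcsk2 had 0.611 with Chga and -0.711 with Vgf. Outside the members, the gene most like Vgf was Fosl2 (0.962), that most like Pcsk2 was Pld5 (0.958) and that most like Scg2 was Fuca1 (0.944). Clcn5 was most like Pcsk1 (0.934), Acsl4 most like Pam (0.934) and Brd8 most like Scg5 (0.954). These r describe 7 groups in 2 libraries, and the highest sums of both Pcsk1 and Scg2 were the 2 Hcrt-led ones.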

How the data were processed

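UMI counts per gene and cell were deposited by the authors as 1 matrix per library; Cell Ranger 2.2.0 and mm10 are named in the submitters' processing notes. Cells with 500 or more genes and at most 20% mitochondrial UMIs were kept, Scrublet doublets were removed (95 and 115), and cells were clustered with scanpy 1.11.5 without the members (2000 variable genes, 30 principal components, 15 neighbours, resolution 1) and named from markers. Counts were summed per library and group and fitted with edgeR 4.0.16 (quasi-likelihood, TMM, filterByExpr, library as a block), in 1 fit of 8 sums for the neuron groups, 1 of 8 for load and 1 of 14 for leading peptides. Standard errors were computed back from the F statistic. DESeq2 1.42.0 was an alternative, and fits were tested on simulated data. Intervals are exact binomial or Poisson at 95%. The rule for named genes was all 10 members, plus other genes of 4 lists where called or needed; members, lists and neuron groups were chosen with earlier results of these data known. Positions are from GENCODE M21 on GRCm38 and promoters from RefSeq. Basic residue pairs in the proteins were not analysed here.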

Additional observations from a re-analysis of the deposited data

Results flagged for a closer look

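For Vgf the effect of peptide load was larger in inhibitory than in other excitatory neurons, by a log2 difference of 0.74 (edgeR adjusted p = 3.53e-05). For Pcsk2 it was smaller in inhibitory neurons, by -0.65 (edgeR adjusted p = 0.00367). Both were flagged because the difference between the 2 transmitter classes was itself called, as an interaction tested for all genes, of which 2.03% were called. Neither was called without neurons led by a single precursor, and neither without the library block. The cause was not tested.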

How the results depend on the processing

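Of 785 alternative tests of the 71 called member values, 700 kept direction and call, 82 kept direction without the call and 3 had the opposite sign. Each library alone gives a log2 value with no test, since 1 sum per group leaves no residual degrees of freedom and no count of calls; of 142 such values none changed sign, and 30 moved by more than the SD between the libraries. The libraries carry no shared replicate numbers, so the library itself was the block. Without the replicate block the members called were 3 for load in inhibitory and 3 in other excitatory neurons (6 and 6 with it), 2 in inhibitory against other excitatory neurons (4 with it) and 0 for the difference of load effects (2 with it). DESeq2 called 2, 3, 2 and 1 in the same comparisons. In cells thinned to 3000 UMIs 4 members were called in Pmch-high neurons, against 8 in full, and 2, 3 and 1 for load in inhibitory neurons, in other excitatory neurons and for their difference. Without neurons led by 1 precursor the load counts were 2 in inhibitory neurons and 0 for the difference, and taking 3 bins of load in place of 4 gave 1 for the difference. A separate fit of inhibitory and other excitatory neurons called 7. In cells without early response UMIs, an alternative added after seeing the data, as was leaving out led neurons, load in other excitatory neurons called 3. There Pcsk1 was at -0.60 with load in other excitatory neurons (edgeR adjusted p = 0.669) and Pcsk2 at -0.64 in Hcrt-high neurons (edgeR adjusted p = 0.177), and Scg3 was at -0.31 in inhibitory neurons when Hcrt-high and Pmch-high neurons were kept. The cause was not tested; thinning and leaving out cells also lower the counts behind each sum. Over all genes, calls in inhibitory against other excitatory neurons were 957, 261 by DESeq2, 387 without the block and 1708 in a separate fit. For load they were 1137 in inhibitory and 545 in other excitatory neurons, against 185 and 126 by DESeq2. In thinned cells 1687 genes were called in Hcrt-high and 963 in Pmch-high neurons, against 4990 and 4451 in full. Pcsk1 sums of 5 or fewer UMIs, as in Pmch-led, Trh-led, Sst-led and Gal-led neurons, limit what can be read from its fold changes there.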
